A study of Mus musculus with 40 samples.

Results

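The Notch receptors, their ligands and the Hes and Hey genes were examined at the level of promoter chromatin in cultured mouse oligodendrocyte precursor cells (OPCs). The 32 genes were chosen by name and protein class from 21951 protein-coding genes of the annotation. The rule uses no measured value, but it was set with earlier results of these data known. They comprised 4 receptors, 5 canonical ligands, the 2 non-canonical ligands Dlk2 and Dner, 3 fringe glycosyltransferases, 4 genes of the nuclear complex, 9 Hes and Hey genes, 3 protease genes, and the antagonists Numb and Numbl. A gene was scored for H3K4me3, a mark of active or poised promoters, and for H3K27me3, the mark deposited by Polycomb repressive complex 2, when a peak overlapped a promoter window from 2000 bp upstream to 1000 bp downstream of any of its annotated transcript starts (mm10).

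Notch signaling passes between touching cells. A Delta-like or Jagged ligand on one cell binds a Notch receptor on its neighbour, ADAM and gamma-secretase proteases release the intracellular domain of the receptor, and this domain joins Rbpj and a Mastermind-like protein in the nucleus to switch on Hes and Hey genes, which encode transcriptional repressors. In the oligodendrocyte lineage the pathway is known for holding precursors in an undifferentiated state.

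The data are the ChIP-seq peaks of 20 libraries, 10 for each mark. OPCs came from postnatal day 5 to 7 mice on an FVB background, from litters labelled AMGFAP-Cre;K27M. In this H3-3a-LSL-K27M conditional knock-in, Cre, driven by a human GFAP promoter (hGFAP-Cre in the study's methods), removes a stop cassette so that H3.3 K27M is made from the endogenous H3-3a locus. Littermates served as controls. Tissue was pooled by region and genotype, cells binding the lectin BSL1 (endothelial cells and microglia) were depleted, OPCs were captured with an antibody against PDGFRa, and the cultures were grown in proliferation medium and not differentiated. Brainstem cultures 59 and 61 and dorsal telencephalon cultures 59, 60 and 61 (cortex, corpus callosum and hippocampus, labelled cortex) each came as a control and K27M pair, giving 5 matched pairs with 1 library per mark, culture and genotype. Because the cultures were assayed in bulk, fewer cells carrying a mark and less of the mark per cell cannot be told apart.

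The 5 OPC markers examined (Pdgfra, Cspg4, Olig1, Olig2 and Sox10) had an H3K4me3 and no H3K27me3 promoter peak in every library. Of the markers of other cells, all 3 neuronal genes had an H3K4me3 peak in every library, 1 to 3 of 3 astrocyte genes did so, and 0 to 1 of 4 microglial and 0 to 1 of 3 endothelial genes did so, with Aif1, Cx3cr1, Csf1r, Pecam1 and Cdh5 lacking one throughout. Per library, an H3K27me3 peak lay at 1 to 3 of the 3 neuronal and 0 to 2 of the 3 astrocyte genes. It lay at 0 to 2 of the 4 microglial genes and at 1 of the 3 endothelial genes. The part of other cell types in the results was not tested. H3K4me3 peaks lay at 58.8% to 65.1% of protein-coding genes per library, and H3K27me3 peaks at 9.99% to 30.1% in controls and 6.41% to 12.3% in K27M. The pair of telencephalon culture 59 stood apart, with a median H3K4me3 fold enrichment over input of 4.12 in the control and 6.58 in K27M against 11.9 to 63.9 in the other libraries, and with H3K27me3 at the smallest share of promoters of either genotype. Where leaving out this pair changed a call or a count, both values are given.

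The promoters of 3 genes show the range of chromatin found among these genes. In peaks shared by at least 2 control cultures of a region, Hes5 carried H3K4me3 alone, Hey2 carried both marks in both regions, and Lfng carried both in the telencephalon but H3K4me3 alone in the brainstem, where 1 of 2 controls had H3K27me3. Each stretch also holds TGGGAA, the core of the sequence bound by Rbpj, on either strand. Capitals mark this motif (TGGGAA, or TTCCCA where it lies on the opposite strand), and each stretch runs 5′ to 3′ in the direction of the gene over the 250 bases before a RefSeq start site and the first 10 bases after it (GRCm38.p6).
Hes5: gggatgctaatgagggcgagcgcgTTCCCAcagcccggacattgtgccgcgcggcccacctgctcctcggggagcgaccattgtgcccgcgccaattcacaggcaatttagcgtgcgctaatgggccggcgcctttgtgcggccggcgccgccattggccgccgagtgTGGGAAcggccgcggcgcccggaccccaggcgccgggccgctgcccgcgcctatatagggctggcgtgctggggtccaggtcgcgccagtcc
Hey2: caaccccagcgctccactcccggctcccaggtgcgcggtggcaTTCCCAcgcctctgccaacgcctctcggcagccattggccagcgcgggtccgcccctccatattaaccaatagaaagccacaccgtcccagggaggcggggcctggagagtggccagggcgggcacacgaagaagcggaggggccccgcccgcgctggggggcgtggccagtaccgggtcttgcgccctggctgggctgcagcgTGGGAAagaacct
Lfng: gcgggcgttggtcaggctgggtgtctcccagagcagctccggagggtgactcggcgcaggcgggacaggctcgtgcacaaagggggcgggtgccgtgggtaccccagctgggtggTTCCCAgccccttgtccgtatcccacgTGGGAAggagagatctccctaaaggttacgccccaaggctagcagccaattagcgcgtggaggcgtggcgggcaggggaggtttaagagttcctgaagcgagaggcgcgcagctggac
The stretch of Hes5 lies at chr4:154960673-154960932 on the plus strand and holds 34 CpG dinucleotides, that of Hey2 at chr10:30842774-30843033 on the minus strand with 22, and that of Lfng at chr5:140607091-140607350 on the plus strand with 19. H3K4me3 peaks covered all 260 bases of the Hey2 stretch in 9 of 10 libraries. Of the Hes5 stretch they covered 4 bases in brainstem control 61, 18 in telencephalon control 59, 0 in telencephalon K27M 59, and 260 elsewhere. Of the Lfng stretch they covered 0 bases in telencephalon control 59, 155 in telencephalon K27M 59, and 260 elsewhere. H3K27me3 peaks covered none of the Hes5 stretch in any library, and covered the Hey2 stretch only in telencephalon control 60, although H3K27me3 lay elsewhere in the Hey2 window in every library. Of the Lfng stretch, H3K27me3 covered 125 bases in brainstem control 59, 70 in telencephalon control 60 and none elsewhere. RefSeq promoters of 300 bases were matched for 26 of the 32 genes, and 8 of these 26 held the motif (Lfng, Rbpj, Maml2, Maml3, Hes5, Hes7, Hey2 and Psen2), against 28.3% of all genes with a promoter. A match describes the letters and not binding.

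In the controls the pathway divided into genes marked by H3K4me3 alone and a smaller group that carried H3K27me3 as well. A promoter state was assigned from peaks shared by at least 2 control cultures of a region above p-value limits, and a gene with both marks at a promoter was called bivalent. A gene took the first state met by any of its windows, in the order bivalent, H3K4me3 alone, H3K27me3 alone and neither mark. In the brainstem 6 of the 32 genes were bivalent (Notch2, Dll4, Jag2, Dlk2, Hey2 and Heyl), against 9.32% of all protein-coding genes. H3K4me3 alone was found at 23 (52% of all genes), H3K27me3 alone at Hes2 and Hes3 (3.36%), and neither mark at Mfng (35.3%). In these states alone does not mean that single libraries lacked the other mark. Notch4, with the state of H3K4me3 alone, had an H3K27me3 peak in 2 of 2 brainstem controls. Hes3, with the state of H3K27me3 alone, had an H3K4me3 peak in 2 of 2. In the telencephalon 10 were bivalent, namely the same 6 with Lfng, Maml3, Hes2 and Hes3, against 14.5% of all genes, and the other 22 had H3K4me3 alone (49.5%), with 0 listed genes under H3K27me3 alone (3.43%) or neither mark (32.6%). The H3K4me3 peaks of Heyl, Hes2 and Hes3 were low where present. Their fold enrichment lay at median percentiles of 4.57, 4.43 and 2.5 among genes with a peak in the same library. The 6 genes bivalent in both regions compared with 8.81% of all genes. The 4 genes bivalent in the telencephalon and not in the brainstem controls compared with 5.68% of all genes, and no listed gene showed the opposite (0.51%). The rule asked for 2 of 2 controls in the brainstem but 2 of 3 in the telencephalon, so the telencephalon calls were easier to reach. With a peak needed in each control, the telencephalon count was 4. The difference between regions was not tested. The telencephalon count was 10 without culture 59, 3 without culture 60 (Notch2, Dll4 and Dlk2) and 5 without culture 61 (those 3 with Maml3 and Hey2).

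By class, 1 of 4 receptors, 2 of 5 canonical ligands and 1 of 2 non-canonical ligands were bivalent in both regions, as were 2 of 9 Hes and Hey genes. All 3 protease genes (Adam10, Adam17 and Psen2) and both Numb genes had H3K4me3 alone in the controls of both regions. Over single libraries, 17 of the 32 genes had no H3K27me3 peak in any of the 10 (63.5% of all genes), 7 had one in all 10 (5.79%), and 8 had one in some. The 17 included Notch1, Dll1, Rbpj and the targets Hes1 and Hes5, and the 7 were Notch2, Dll4, Jag2, Dlk2, Hes2, Hey2 and Heyl. H3K4me3 was present in all 10 libraries at 27 of the 32 (58%).

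**Figure D1:**
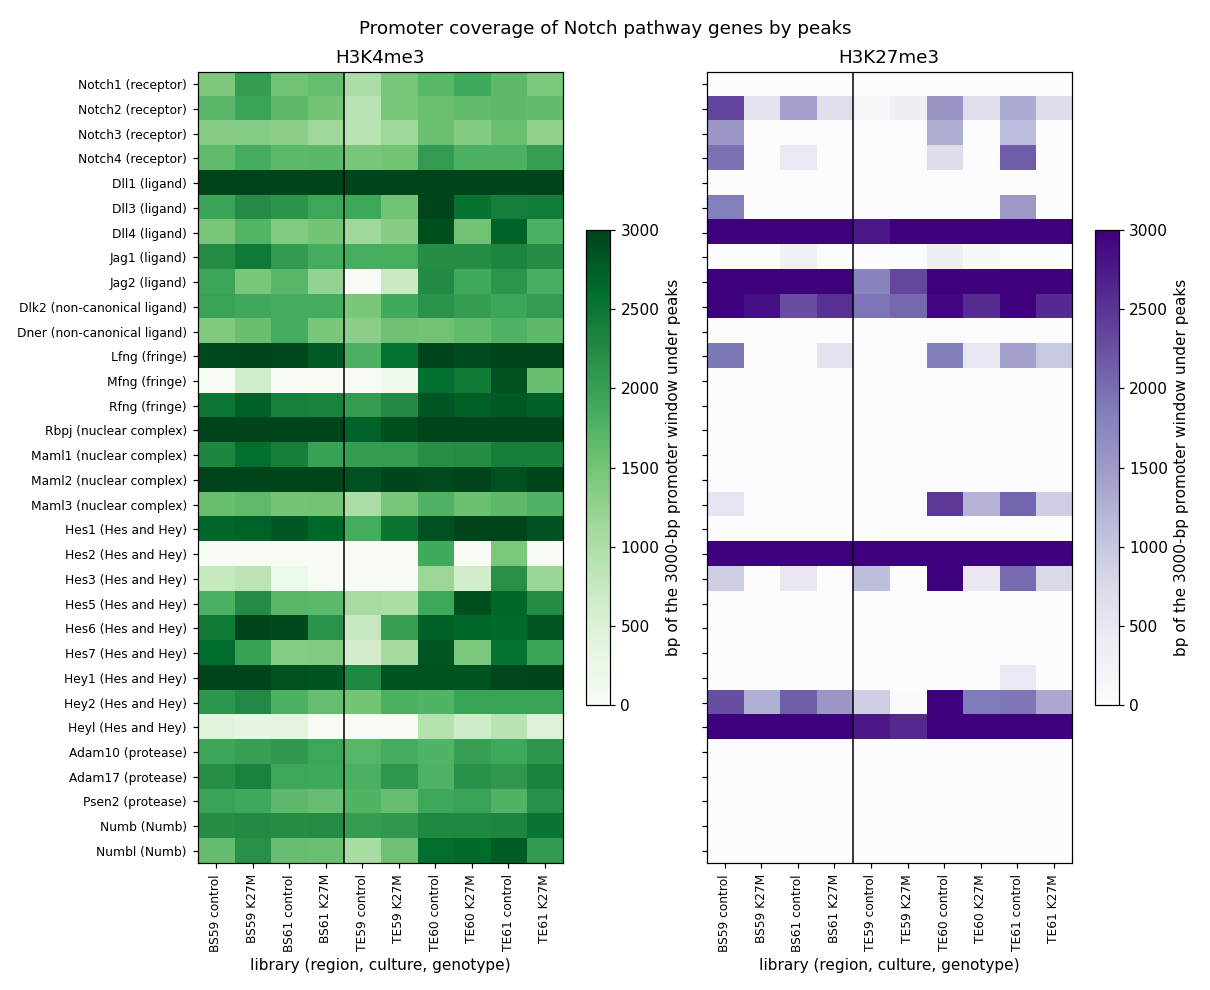
Base pairs of the most covered 3000-bp promoter window that lay under H3K4me3 peaks (left) and H3K27me3 peaks (right), for each of the 32 genes (rows, with protein class) in each library (columns, BS brainstem and TE telencephalon, with culture number and genotype). Darker cells have more covered bp. H3K27me3 is blank for 17 genes and present in every column for 7, whereas H3K4me3 is present in every column for 27.

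Among the receptors, Notch1 had no H3K27me3 peak in any library, Notch2 had one in all of them, and Notch3 and Notch4 had one in controls only. With Dll3 and Hey1, 4 listed genes had H3K27me3 in at least 1 control and in no K27M library (22.3% of all genes). At Notch2 (chr3:98013527-98150361, plus strand), H3K27me3 covered 2360, 1426, 122, 1548 and 1315 bp of the window in the controls, in the order brainstem 59 and 61 and telencephalon 59, 60 and 61 that is used throughout. The matched K27M values were 577, 667, 306, 666 and 680 bp. Coverage was lower in K27M in 4 of 5 pairs and higher in telencephalon 59, with a mean difference of -775 bp (SD 701, n = 5 pairs; two-sided exact sign-flip permutation test, p = 0.125). At Notch3, coverage was 1535, 0, 0, 1292 and 1124 bp in the controls and 0 bp in all K27M cultures. At Notch4, it was 1960, 442, 0, 685 and 2144 bp in the controls and 0 bp in all K27M cultures (mean difference -1046 bp, SD 953, n = 5 pairs, exact p = 0.125). Some promoter windows of Notch4 are shared with Gpsm3, so a peak there cannot be given to one of them. The H3K4me3 peak of Notch1 was among the widest, with a median width of 6588.5 bp (2730 to 21895 bp) at a median percentile of 97.7 among the genes with a peak in the same library.

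The canonical ligands split between full H3K27me3 coverage and little or none. Dll1 had no H3K27me3 peak and the largest median width of H3K4me3 peaks on the list, 9274 bp (4468 to 12777 bp), at a median percentile of 99.5. In single libraries other listed genes could be wider. Dll4 (chr2:119325784-119335962, plus strand), a ligand known from endothelial cells, had all 3000 bp of its window under H3K27me3 in 9 of 10 libraries and 2758 bp in telencephalon control 59. Jag2 (chr12:112907819-112929776, minus strand) was likewise fully covered except in telencephalon culture 59, with 1769 bp in the control and 2338 bp in K27M. Its H3K4me3 coverage was 1944, 1700, 0, 2258 and 2125 bp in the controls and 1448, 1235, 731, 1880 and 1828 bp in K27M, so that telencephalon control 59 was the only library without a peak. Coverage of a window cannot exceed 3000 bp, so a difference at these genes could not show there. Within 10 kb of the start site, a measure taken up after the window values were seen, H3K27me3 covered 11444, 7121, 3778, 10845 and 12021 bp around Dll4 in the controls and 5896, 4847, 3351, 5086 and 9539 bp in K27M, less in K27M in 5 of 5 pairs. Around Jag2 it covered 6665, 5066, 1769, 7111 and 6552 bp in the controls and 5487, 5791, 3000, 5276 and 4106 bp in K27M, less in K27M in 3 of 5 pairs. These values around Dll4 and Jag2 were not tested, and the share of all genes with such a difference was not computed. Over the whole genome, H3K27me3 peaks covered 102, 49.3, 26.5, 96.2 and 152 Mb in the controls. In K27M they covered 22.4, 29.8, 13.3, 41.4 and 21.4 Mb, less in every pair.

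Dll3 and Jag1 had H3K27me3 in few libraries. Coverage at Dll3, a divergent family member that does not activate the receptor in trans, was 1818 and 1501 bp in brainstem control 59 and telencephalon control 61 and 0 bp in the other 8 libraries. At Jag1, it was 297 bp in brainstem control 61, 340 bp in telencephalon control 60 and 97 bp in its matched K27M culture. Of the non-canonical ligands, Dner had H3K4me3 alone, whereas Dlk2 had H3K27me3 coverage of 3000, 2283, 1943, 2922 and 3000 bp in the controls and 2858, 2527, 2046, 2573 and 2592 bp in K27M. The genotypes overlapped at Dlk2, which was lower in K27M in 3 of 5 pairs.

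Fringe enzymes add N-acetylglucosamine to the receptor and so tune its response to ligands. Lfng had H3K27me3 over 1896, 0, 0, 1841 and 1429 bp in the controls and 0, 554, 0, 511 and 976 bp in K27M, and brainstem 61 was the only pair higher in K27M. Mfng was the only listed gene unmarked in the brainstem controls. Its H3K4me3 coverage was 0, 0, 0, 2569 and 2879 bp in the controls and 613, 0, 156, 2426 and 1581 bp in K27M, so that telencephalon cultures 60 and 61 stood above the rest. Rfng had H3K4me3 alone, in windows it shares with Gps1.

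In the nuclear complex, Rbpj, the DNA-binding partner of the receptor domain, and the coactivators Maml1 and Maml2 had H3K4me3 without H3K27me3 in every library. Maml2 had H3K4me3 peaks of 7700.5 bp in the median (6310 to 9223 bp), at a median percentile of 99.4. Maml3 differed from them in carrying H3K27me3 over 527, 0, 0, 2469 and 2063 bp in the controls and 0, 0, 0, 1217 and 909 bp in K27M. The higher values were all in telencephalon cultures 60 and 61, where the gene was bivalent in both genotypes.

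The Hes and Hey genes ranged from H3K4me3 alone to H3K27me3 over the whole window. Hes1, Hes5, Hes6 and Hes7 had H3K4me3 in every library and H3K27me3 in none, and Hey1 differed only by 440 bp of H3K27me3 in telencephalon control 61. Hes5 and Hey1 had wide H3K4me3 peaks, with medians of 5021 bp and 5436.5 bp. Hes2 (chr4:152158867-152162469, plus strand) was fully covered by H3K27me3 in all 10 libraries and had H3K4me3 only in telencephalon controls 60 and 61, over 1869 and 1434 bp (H3K4me3 in at least 1 control and no K27M library, 1.9% of all genes). Heyl had H3K27me3 over 2612 to 3000 bp in every library and narrow H3K4me3 peaks with a median of 479 bp in 7 of them.

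Hes3 and Hey2 were the only listed genes with less H3K27me3 coverage of the window in K27M in all 5 pairs, a difference that genes at the 3000-bp limit cannot show, against 11.1% of the 8005 genes with H3K27me3 in at least 1 library. Without telencephalon culture 59, Notch2 and Notch4 were also lower in K27M in every remaining pair. The share of all genes without that pair was not computed. At Hes3 (chr4:152285972-152291662, minus strand), H3K27me3 covered 897, 483, 1096, 3000 and 2039 bp in the controls and 0, 0, 0, 458 and 753 bp in K27M. Of the K27M values, only that of telencephalon 61 lay within the range of the controls. The mean difference was -1261 bp (SD 776, n = 5 pairs; two-sided exact sign-flip permutation test, p = 0.0625). At Hey2 (chr10:30832359-30842801, minus strand), coverage was 2264, 2140, 892, 3000 and 1911 bp in the controls and 1270, 1539, 41, 1881 and 1346 bp in K27M, again with overlap between the genotypes. Its mean difference was -826 bp (SD 242, n = 5 pairs, exact p = 0.0625). This is the smallest p that the sign-flip test can give with 5 pairs, so no gene could pass 0.05, and after Benjamini-Hochberg adjustment over the 8005 genes the smallest adjusted p of this permutation test was 0.446. None of the 8005 genes had an unadjusted p under 0.05. Over the 15 listed genes with H3K27me3 in at least 1 library, the median of the mean differences was -586.6 bp, against -418.4 bp over the 8005 genes.

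**Figure D2:**
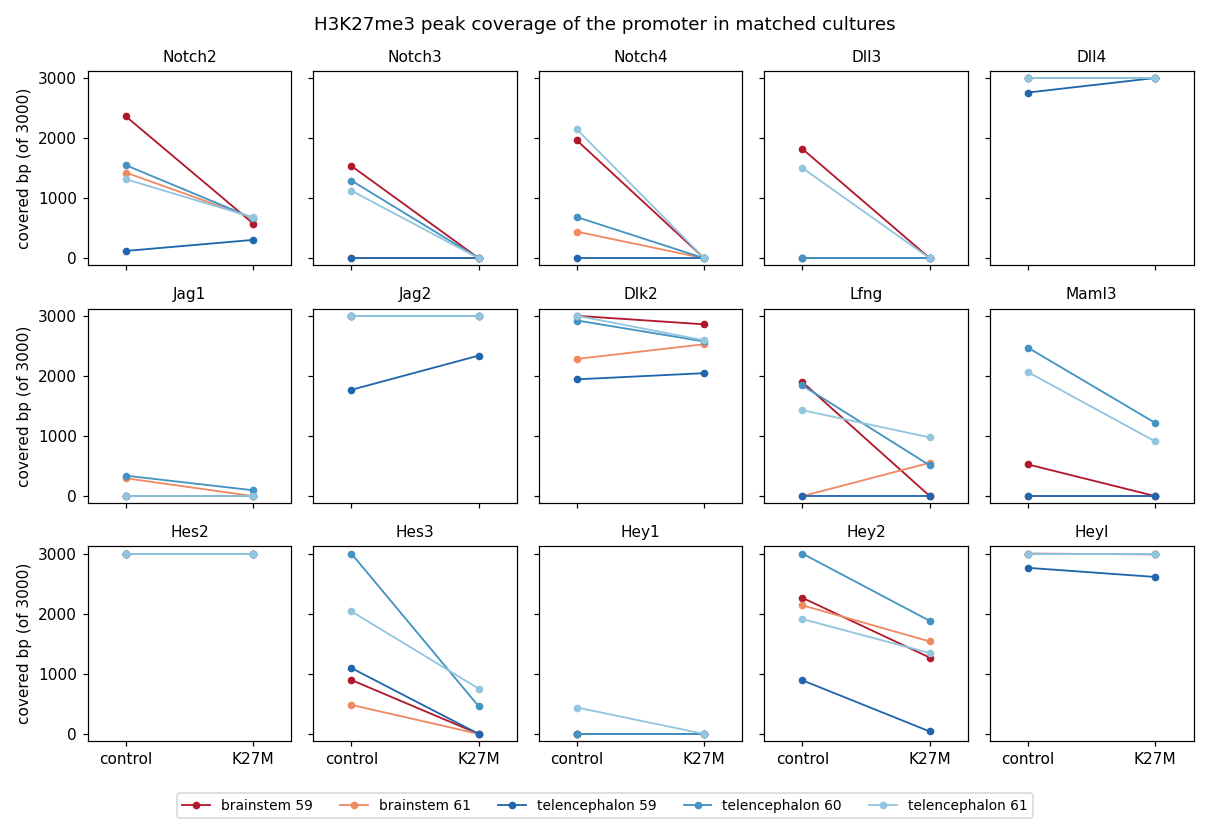
Base pairs of the most covered 3000-bp promoter window under H3K27me3 peaks (vertical axis) in the control and K27M culture of each matched pair, for the 15 listed genes with an H3K27me3 peak in at least 1 library. Each line is 1 pair, coloured by region and culture. All 5 lines go down at Hes3 and Hey2, whereas Hes2 stays at 3000 bp in every library.

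Where both marks lay in one window, they shared bases to very different degrees. At Dll4, Jag2 and Heyl, the median control library had 100% of the H3K4me3-covered bases under H3K27me3 as well. At Notch2 the median was 41.7% in the controls (0 to 62.0%) and 40.7% in K27M, with the H3K4me3 peak on the start site and H3K27me3 mostly to its sides. At Hey2 the shared stretch was 1327, 926, 180, 1749 and 870 bp in the controls and 326, 272, 0, 1091 and 274 bp in K27M, lower in each pair. The median over all genes with both marks in a window ranged from 11.3% to 100% between libraries and was smallest in telencephalon control 59.

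**Figure D3:**
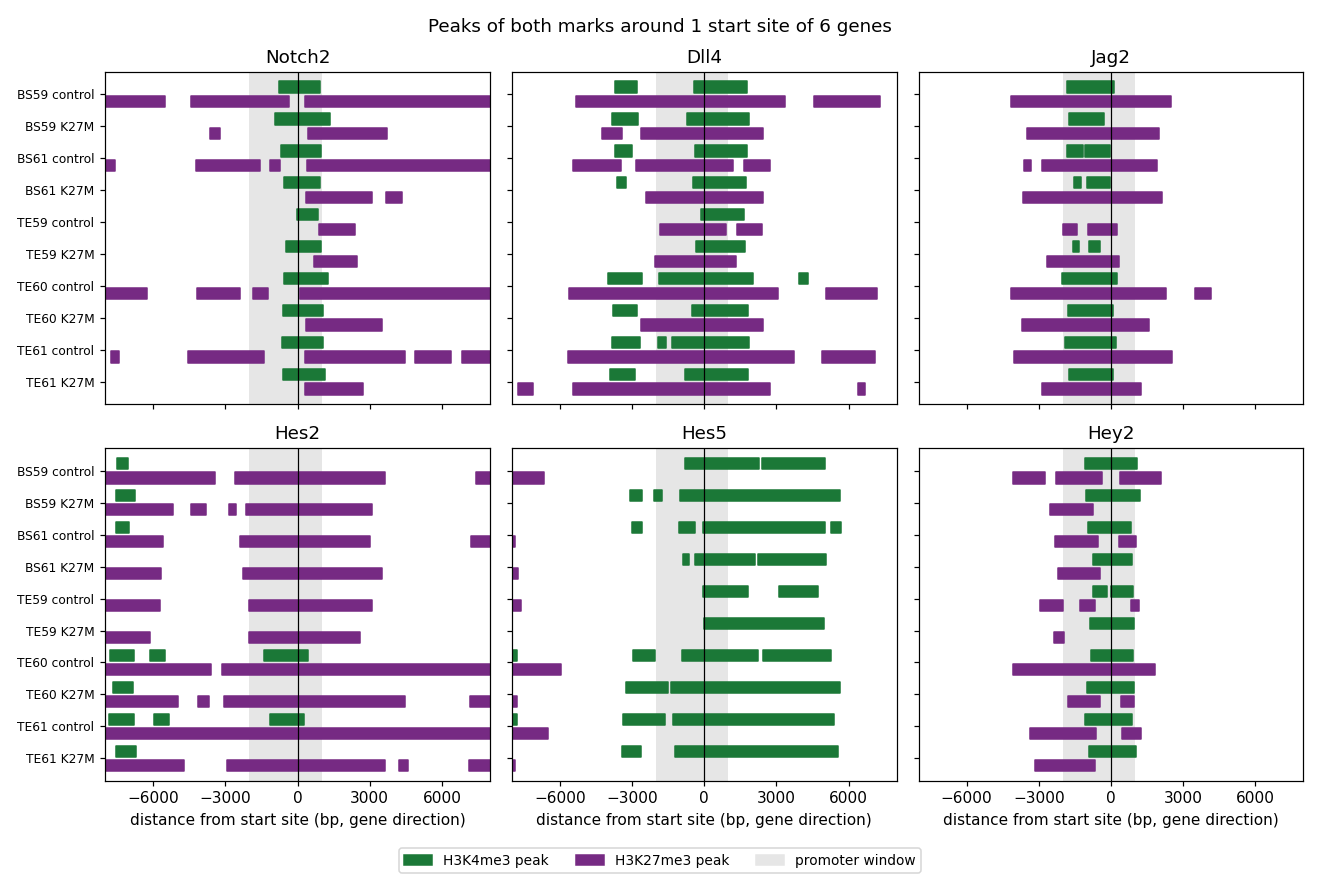
H3K4me3 peaks (green) and H3K27me3 peaks (purple) around 1 start site of Notch2, Dll4, Jag2, Hes2, Hes5 and Hey2 in each library (rows, BS brainstem and TE telencephalon), by distance from the start site in bp in the direction of the gene, with the promoter window in grey. H3K27me3 spans the start site of Dll4 and Hes2, lies mostly to the sides of the start site of Notch2 and Hey2 in most libraries, and is absent from the promoter window of Hes5.

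Fewer listed genes had an H3K27me3 promoter peak in K27M than in the matched control in every pair. The numbers were 13, 10, 8, 13 and 14 of 32 in the controls and 7, 8, 7, 11 and 10 in K27M, a mean difference of -3 (SD 2, n = 5 pairs). The shares of all protein-coding genes moved in the same direction, from 28.3%, 17.0%, 9.99%, 25.6% and 30.1% to 10.2%, 11.6%, 6.41%, 12.3% and 10.3%. With the same number of H3K27me3 peaks, 4739, kept in each library, the mean difference was -1. Equal numbers also remove any difference in peak number between the genotypes, and the cause was not tested. For H3K4me3 the numbers were 30, 30, 27, 32 and 32 in the controls and 31, 28, 29, 31 and 31 in K27M, a mean difference of -0.2 (SD 1.64, n = 5 pairs).

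**Figure D4:**
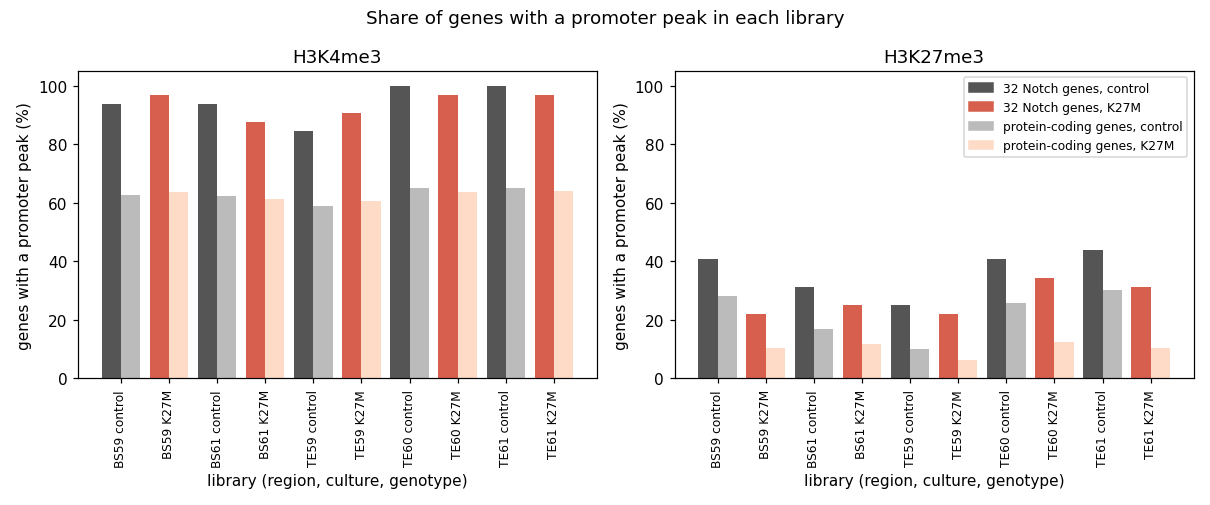
Percent of the 32 listed genes (dark bars) and of all protein-coding genes (pale bars) with a promoter peak of H3K4me3 (left) and H3K27me3 (right) in each library (BS brainstem, TE telencephalon), with controls in grey and K27M in red. The H3K27me3 share of the listed genes lies above that of all genes in all 10 libraries and is lower in K27M than in the control of each pair.

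With all cultures, few listed genes lost H3K27me3 across a whole region. The shares given for this loss are of all protein-coding genes, 63.5% of which had no H3K27me3 peak in any library. In the brainstem, Notch4 and Hes3 had H3K27me3 in both controls and in no K27M culture (5% of all genes), and in the telencephalon no listed gene had it in all 3 controls and in no K27M culture (1.43%). Without telencephalon culture 59, 2 genes did so (Notch3 and Notch4), against 10.8% of all genes. Of the genes with H3K27me3 in every control of a region, 7 of 9 kept it in every K27M culture of the brainstem (58% of all such genes) and 7 of 8 in the telencephalon (61.6%). The 7 genes were the same in both regions, and were those with a peak in all 10 libraries. By the state that at least 2 cultures share above the p-value limits, bivalency was found in K27M at 5 of the 6 genes bivalent in the brainstem controls (61.2% of all such genes), with H3K27me3 alone at Heyl. In the telencephalon it was found at 6 of 10 (47.4%), while the state was H3K4me3 alone at Lfng and Hey2 and H3K27me3 alone at Hes2 and Hes3. This state is stricter than a peak in single libraries, since Hey2 had an H3K27me3 peak in 3 of 3 telencephalon K27M cultures, Lfng in 2 of 3, and Hes3 an H3K4me3 peak in 2 of 3.

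At the 7 genes with H3K27me3 in every library, the height of the peaks was compared as the highest fold enrichment over input. This comparison was chosen after the peak coverage had been seen. Hes2 had 8.18, 7.57, 3.38, 8.34 and 5.72 in the controls and 20.1, 19.2, 6.28, 15.4 and 20.2 in K27M. The K27M value was higher in 5 of 5 pairs, and the genotypes overlapped only through telencephalon K27M 59. The geometric mean of the ratios was 2.38 (1.84 to 3.53), a mean log2 ratio of 1.25 (SD 0.39, n = 5 pairs; two-sided exact sign-flip permutation test, p = 0.0625, adjusted p = 0.136 over 1272 genes). The mean log2 ratio of Hes2 was above that of 91.7% of the 1272 genes with H3K27me3 in all 10 libraries, and was 1.16 relative to the median gene of each pair.

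Jag2 was also higher in K27M in 5 of 5 pairs, with 6.61, 4.89, 1.74, 8.82 and 5.61 in the controls and 9.26, 9.02, 2.61, 10.3 and 9.65 in K27M (mean log2 ratio 0.59, SD 0.26, n = 5 pairs, exact p = 0.0625). Higher values in all 5 pairs were found at 42.2% of the 1272 genes, whose median of the mean log2 ratios was 0.33, so 2 of 7 is not above the background. The mean log2 ratio was 0.42 at Dll4, 0.39 at Dlk2, 0.22 at Notch2, 0.13 at Heyl and -0.14 at Hey2, with pairs in both directions at each. Fold enrichment is scaled within each library against its own input and did not use the spike-in, so it does not compare the absolute amount of H3K27me3.

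**Figure D5:**
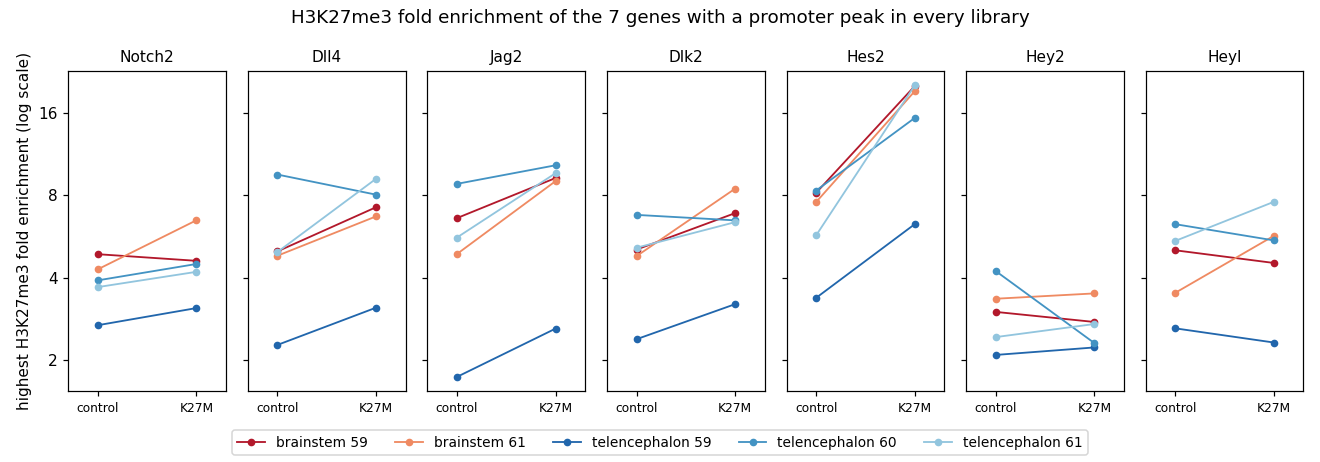
Highest H3K27me3 fold enrichment over input among the promoter peaks (vertical axis, log scale) in the control and K27M culture of each matched pair, for the 7 listed genes with a peak in all 10 libraries. Each line is 1 pair, coloured by region and culture. All 5 lines go up at Hes2 and Jag2, and lines go both ways at the other 5 genes.

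For H3K4me3, no difference between K27M and control was called at any of the 27 genes with a peak in all 10 libraries. The log2 fold enrichment, centred on the median of each library, was fitted with limma for 12737 genes with the matched culture as a block. In the brainstem the log2 differences of the 27 genes ran from -0.63 (Numbl) to 0.38 (Psen2), and 0 of 12737 genes passed an adjusted p of 0.05 in either direction (256 had an unadjusted p under 0.05). In the telencephalon they ran from -0.53 (Notch3) to 0.55 (Maml2), with 0 genes of the genome called higher and 3 lower (0.0236%), none of them listed. More genes than in the brainstem, 1469 of 12737, had an unadjusted p under 0.05 in this limma fit, among them 3 of the 27. The difference of the K27M effect between regions, and the regions within each genotype, gave 0 calls among all genes (525, 55 and 190 with an unadjusted p under 0.05 for the difference, the controls and K27M).

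Notch3 depended on telencephalon culture 59. Its H3K4me3 fold enrichment was 10.4, 7.65, 1.93, 69.8 and 43.2 in the controls and 13.2, 9.01, 4.45, 13.1 and 16.8 in K27M. In telencephalon cultures 60 and 61 the control was far above K27M, whereas in the other 3 pairs K27M was higher. The log2 difference in the telencephalon was -0.53 (SE 0.30, limma adjusted p = 0.511) with all cultures and -1.06 (SE 0.26, limma adjusted p = 0.00687) without culture 59, where 969 genes were called higher (7.61%) and 203 lower (1.59%). Without culture 60 the log2 difference was -0.10. The other 26 genes were not called in the fits with and without culture 59. Without culture 59, the remaining contrasts called 0 of the 27 genes, while they called 0.00785% of all genes higher and 0.0157% lower for K27M in the brainstem, and 1.7% higher and 0.11% lower for the difference of the K27M effect between regions. For the telencephalon against the brainstem they called 0.212% higher and 4.49% lower in controls, and 0.0314% higher and 0.11% lower in K27M.

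H3K27me3 was also read at other genes of the pathway. Of 20 further Notch pathway genes, among them gamma-secretase subunits, ubiquitin ligases and cofactors, all 20 had H3K4me3 in all 10 libraries and 6 had H3K27me3 in at least 1 (Aph1a, Poglut1, Neurl1a, Neurl1b, Nrarp and Snw1). Only Poglut1, which adds glucose to the receptor, was bivalent in the brainstem controls, and Poglut1 and Nrarp, a feedback inhibitor of the pathway, were so in the telencephalon controls. H3K27me3 covered 727, 592, 0, 1188 and 605 bp of the Poglut1 window in the controls and 0, 83, 0, 0 and 186 bp in K27M. For H3K4me3, none of the 20 was called in the fits with all cultures, and 1 was called without telencephalon culture 59. This was Psenen, a gamma-secretase subunit, with H3K4me3 fold enrichment of 20.6, 13.0, 5.86, 28.1 and 48.3 in the controls and 25.0, 12.6, 11.5, 32.8 and 41.1 in K27M. Its log2 difference in the telencephalon, relative to the median gene of each library, was 0.64 (SE 0.23, limma adjusted p = 0.3497) with all cultures and 0.83 (SE 0.26, limma adjusted p = 0.0414) without culture 59. Promoter windows of Psenen are shared with Gm49396, Igflr1, Lin37 and U2af1l4, so a peak there cannot be given to one of them.

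CpG content, which the choice of genes did not use, was high at most of these promoters. The most CpG-rich window of a gene held a median of 4.88 CpG per 100 bp over the 32 genes (1.93 at Mfng to 9.3 at Jag2), against 2.67 over all protein-coding genes. The median was 5.07 for the 7 genes with H3K27me3 in all 10 libraries, 4.63 for the 8 with it in some and 4.57 for the 17 with it in none. The values for all genes in the same classes were 4.13, 2.4 and 2.67.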

How the data were processed

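The 20 peak lists were grouped by their labels, and the 20 input libraries were not used here. Reads had been trimmed by the authors with Trim Galore 0.6.7, mapped to mm10 by BWA 0.7.17-r1188 and cleared of ENCODE blacklist regions. Peaks had been called in each library against input by MACS2 2.2.7.1, narrow for H3K4me3 and broad (cutoff 0.1) for H3K27me3. Each deposited peak carries a ratio, which is its fold enrichment against input, and −log10 values of p-value and q-value. They hold no read counts, so depth per library is unknown, and a promoter without a peak can hold signal under the caller's threshold. Peak calling did not use the Drosophila spike-in.

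Peaks were joined to GENCODE M21 promoters (minimum overlap 1 bp) with numpy 2.4.6, scipy 1.17.1 and Python 3.11.15. Shared peaks were found in at least 2 cultures by a rewritten form of the MSPC procedure that the study used. Its stringent and weak p were 1e-10 and 1e-06 (H3K4me3), or 1e-08 and 1e-04 (H3K27me3). limma 3.58.1 (R 4.3.3) was used for H3K4me3 fold enrichment and exact sign-flip permutation tests over pairs for H3K27me3. Figures were drawn with matplotlib 3.10.9. Tests were checked on simulated data for the telencephalon comparison of 12737 genes, with 100 genes changed per size. When log2 changes of 0.5 and 1 were mixed, 0% of either were recovered with 0 false calls, and when 1 and 3 were mixed, 25% and 96% were recovered with 4 false calls.

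Matched control and K27M libraries were paired by culture, as the labels number them. Deviations from group means correlated across genes by 0.774, 0.627 and 0.308 in telencephalon cultures 59, 60 and 61 and by 0.0251 in the brainstem, where 2 cultures give 1 value. Whether litters were shared is not given in the sources used here, and p-values measure the spread between these cultures. Values per library were given for genes that were bivalent in controls, had H3K27me3 in any library or passed an adjusted p of 0.05. Psenen, Rfng, Mfng, Psen2, Dner and the genes with wide H3K4me3 peaks were named beyond that rule. The gene lists follow names and protein classes, and were chosen with earlier results of these data known. Alternatives were stricter peaks, other windows and overlaps, equal peak numbers, other scalings, no pairing, and each culture left out.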

Additional observations from a re-analysis of the deposited data

Results flagged for a closer look

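Psen2 and Dner were the listed genes whose H3K4me3 differed between K27M and control in opposite directions in the regions, in every pair. The share of the 12737 fitted genes with this pattern was not computed, so these 2 genes cannot be set against a background. The values are centred log2 fold enrichments, K27M minus control. At Psen2, a catalytic subunit of gamma-secretase, the brainstem pairs (59, 61) gave 0.39 and 0.37, and the telencephalon pairs (59, 60, 61) gave -0.77, -0.39 and -0.43. The difference between regions was -0.91, with an adjusted p of 0.971 in the limma fit over all genes. At Dner, the brainstem pairs gave 0.09 and 0.05 and the telencephalon pairs -0.17, -0.20 and -0.43, a difference of -0.33 that was not called by the same limma fit. The order of the regions at both genes therefore rests on 2 and 3 pairs and did not pass the test of the difference itself.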

How the results depend on the processing

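Of 109 alternatives for counts over the listed genes, 98 kept the value within its limits, and of 114 for single genes, 111 did so. The limits were set on the ratio to the main count or by the SD over pairs, and for single genes on the sign or the call. Many of the 109 compare 0 calls with 0 in the H3K4me3 fits and the H3K27me3 sign-flip tests. The sign-flip tests could not give a call in any setting, so the 98 do not measure how stable the other counts are. The 2 brainstem genes with H3K27me3 in both controls and no K27M culture became 1 with a −log10 q of at least 3, with a fold enrichment of at least 3 or with equal peak numbers, in each case Notch4, and 3 to 6 with a culture left out. The telencephalon count of 0 became 1 (Hes3) with a −log10 q of at least 3 and 0 to 2 with a culture left out. Bivalent genes of the telencephalon controls numbered 4 instead of 10 when each control had to carry the peak, and 3 to 10 with a culture left out. With 1 brainstem culture left out, no consensus of 2 cultures remained, so the bivalent count has no value there. The mean K27M minus control difference in genes with H3K27me3 was -1 with equal peak numbers and -3.5 to -2.25 with a pair left out. Leaving out telencephalon 59 gave 1 H3K4me3 call among the listed genes, Notch3 (log2 -1.06), and 1 among the further pathway genes, Psenen (log2 0.83), and other cultures left out gave 0 in both lists.

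With the regions weighted equally instead of the pairs, the mean K27M minus control difference in genes with H3K27me3 was -3.17. Without the pairing (no replicate block), the coverage test still called 0 genes, with 560 at an unadjusted p under 0.05 and a label permutation p of 0.0167 for Hes3. The H3K4me3 fits called 0 listed genes with or without the block.

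The log2 H3K27me3 fold enrichment ratio changed sign at Hey2 (0.048 without telencephalon 60, with a range of -0.21 to 0.048 over the pairs left out) and at Heyl (-0.012 without brainstem 61, range -0.012 to 0.21). Without centring, the median gene shifted by 0.13 in the brainstem and -0.34 in the telencephalon for K27M against control. Peak lists limit these results: there is 1 library per mark and culture, the sign-flip test over 5 pairs cannot give a p under 0.0625, and signal under the peak threshold was not measured.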
